A study of Mus musculus with 5 samples.

Results

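The genes described here are 10 heat shock chaperones of the mouse, chosen by name out of the 41028 gene names in the 5 count matrices. They are the inducible HSP70 copies Hspa1a and Hspa1b, the constitutive HSP70 Hspa8, the cytosolic HSP90 pair Hsp90aa1 and Hsp90ab1, the small heat shock protein Hspb1, the HSP110 family member Hsph1, the mitochondrial chaperonin pair Hspd1 and Hspe1, and the HSP40 cochaperone Dnajb1. All 10 were tested in each fit below, so none was lost to the filter on low counts.

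The cells came from mammary tumours of PyMT mice, a model in which the middle T antigen of polyoma virus drives tumour growth in the breast epithelium. After digestion, per the labels' protocols, they were enriched for viable cells and profiled on 10x Genomics 3' v2 (droplets) or BD Rhapsody WTA (microwells). The 2 fresh 10x libraries, called fresh 10x 1 and fresh 10x 2, were loaded without storage. The stored 10x library came from a digest kept at 4 °C, for 24 h by its title and overnight by the protocol, and taken on once flow cytometry showed at least 20% less viability. BD 1 is a fresh BD Rhapsody library. BD 2 is called fresh in its title but 24 h in the name of its deposited matrix, so it forms a group of its own with no storage state assumed, and no main test uses it. All groups carry the same tumour model and the same digestion, and no group without digestion was analysed. The labels used here do not say whether the libraries came from separate animals. The p-values below therefore measure only the spread between these libraries, which may be technical, and each edgeR fit on 3 libraries, class differences included, had 1 residual degree of freedom.

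Heat shock chaperones bind unfolded proteins and hold, refold or pass them on. Under heat, protein damage or cell handling, the transcription factor HSF1 is released from chaperones, binds repeats of the letters GAA in promoters and raises the inducible members. The constitutive members work in unstressed cells, and tumour cells commonly carry high chaperone levels. Enzymatic digestion of tissue is itself known to switch on stress genes, among them immediate early genes and heat shock genes.

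The 4 sequences below are promoter stretches that were searched for GAA repeats of the kind HSF1 binds. They are shown because the results turn on Hspa1a against its near copy Hspa1b, on Hspb1, and on the mitochondrial pair, which share 1 stretch. Capitals mark a match to the letters GAANNTTC or TTCNNGAA, where N is any base. Both are their own reverse complement, so a search of 1 strand covers both, and neighbouring matches can overlap. Sequences are from RefSeq, build GRCm38.p6, and run 5′ to 3′ on the strand given. The first 3 are the 250 bases before the start of transcription, and the last is the 215 bases between the start of Hspe1 and the listed start of Hspd1 that lies upstream of it, on the other strand.

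Hspa1a, chr17:34972157-34972406, strand -: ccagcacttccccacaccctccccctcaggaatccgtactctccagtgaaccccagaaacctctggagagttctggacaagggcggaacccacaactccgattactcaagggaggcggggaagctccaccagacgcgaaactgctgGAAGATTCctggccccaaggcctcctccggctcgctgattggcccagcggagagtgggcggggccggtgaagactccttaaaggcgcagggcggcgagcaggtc

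Hspa1b, chr17:34959239-34959488, strand -: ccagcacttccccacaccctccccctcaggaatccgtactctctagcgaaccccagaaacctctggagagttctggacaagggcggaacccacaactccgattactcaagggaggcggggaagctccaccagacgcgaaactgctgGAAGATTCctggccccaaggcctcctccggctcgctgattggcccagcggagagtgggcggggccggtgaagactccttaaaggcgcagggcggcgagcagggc

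Hspb1, chr5:135887669-135887918, strand +: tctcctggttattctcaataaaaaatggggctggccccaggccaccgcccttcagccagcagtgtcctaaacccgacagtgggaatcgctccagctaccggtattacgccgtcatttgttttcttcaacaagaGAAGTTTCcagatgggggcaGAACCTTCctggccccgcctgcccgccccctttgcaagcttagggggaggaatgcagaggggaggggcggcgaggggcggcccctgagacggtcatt

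Hspe1 and Hspd1, chr1:55087933-55088147, strand +: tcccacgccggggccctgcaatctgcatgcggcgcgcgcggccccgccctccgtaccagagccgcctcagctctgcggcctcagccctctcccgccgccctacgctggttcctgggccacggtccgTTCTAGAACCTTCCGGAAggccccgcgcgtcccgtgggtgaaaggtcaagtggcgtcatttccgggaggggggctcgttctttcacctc

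The Hspa1a and Hspa1b stretches were 98.8% identical. Their 3 differences, Hspa1a first and counted from the 5′ end of the 250 bases, were C44T, T47C and T249G, and none lay in the match, which ended 96 bases before the start in both. Hspb1 held 2 matches, and the Hspe1 and Hspd1 stretch held 3 that overlap in a single run. Of 32851 mouse promoters of the same length, 12.8% held at least 1 such match. The longer forms GAANNTTCNNGAA or TTCNNGAANNTTC occurred in 0.466% of promoters and 2 times in the Hspe1 and Hspd1 stretch. Promoters were matched for 7 of the 10 genes. Of those not shown, Hsph1 held 1 match and Dnajb1 held 0 in each of its listed windows. The window before the other listed start of Hspd1, which lies beyond the Hspe1 start, held 0 as well. A match is a string of letters and not a measured binding site.

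The libraries held up to 4186 cells each and 29166129 to 59957945 unique molecular identifiers (UMIs, each counted as 1 captured transcript). Median UMIs per cell were 8926 to 12474. The median share of mitochondrial UMIs was 6.14% to 7.17% in the 10x libraries, 15.2% in BD 1 and 19.8% in BD 2. Cells were clustered without the chaperone genes and named from marker lists, which gave 1365 to 2969 epithelial-like, 120 to 334 fibroblast-like, 50 to 228 macrophage-like and 41 to 141 T-like cells per library. Endothelial-like cells numbered 179, 104, 89 and 45 in fresh 10x 1, fresh 10x 2, stored 10x and BD 1, and 13 in BD 2. Every marker of each class was higher in its class than in the other cells of the same library. The same markers named the clusters, so this is no independent check. A cluster's score on a list is its mean marker level relative to the highest cluster. The T-like cluster scored 1 on its own list and 1 on another, with Gzmb, Xcl1 and Gzma among its top genes. The macrophage-like cluster scored 1 on its own list and 0.785 on another. Both classes may therefore hold other cell types. An unnamed cluster of 1194 cells with a median of 54.1% mitochondrial UMIs is part of the whole-library sums but of no class. At most 24 cell barcodes were shared by a pair of libraries, none with identical counts. RNA of the summed epithelial genes Krt8, Krt18, Epcam, Csn3 and Wfdc18 amounted to 1.13% to 6.26% of its epithelial level in the other classes. These are ratios of per-cell medians, and they were highest in stored 10x, at 3.76% to 6.26%.

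All levels are UMIs per 10000 UMIs of the library or class, and they are compared between libraries and classes, not between genes. In whole libraries, fewer cells of a type and less RNA per cell cannot be told apart. Hspa1a, an inducible HSP70 that refolds damaged proteins, was at 3.15 and 5.78 in the fresh pair (fresh 10x 1 first), 1.63 in stored 10x, and 2.17 and 1.67 on BD 1 and BD 2. Stored 10x and both BD libraries lay below both fresh 10x libraries. Hspa1b was at 1.13, 1.99, 0.999, 2.51 and 1.94 in the same order. Here BD 1 was the highest library and stored 10x the lowest, and BD 2 lay between the fresh pair.

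Hspa8, the constitutive HSP70 that serves folding in unstressed cells, was at 20.1, 17.7, 15.9, 9.58 and 9.23. Both BD libraries stood well under all 10x libraries, and stored 10x lay just under the fresh pair. Hsp90ab1, the constitutive cytosolic HSP90, was at 23.2, 26.7, 22.0, 19.2 and 19.0, with stored 10x and both BD libraries under the fresh pair. Its inducible partner Hsp90aa1 was at 6.54, 9.13, 5.69, 6.81 and 6.70, and both BD libraries fell between the fresh pair. The ratio of Hsp90aa1 to Hsp90ab1 UMIs was 0.282, 0.342, 0.259, 0.355 and 0.352, so it was highest in the BD libraries.

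The mitochondrial chaperonin subunits Hspd1 (HSP60) and Hspe1 (HSP10) fold proteins imported into mitochondria. Hspd1 was at 2.75, 3.18, 2.30, 1.83 and 1.92, and Hspe1 at 4.07, 4.71, 3.77, 3.04 and 3.72. For both genes the stored and BD libraries lay under the fresh pair. Hspb1, an ATP-independent holdase, was at 4.12, 6.0, 3.28, 5.28 and 3.99. Dnajb1, the HSP40 that delivers clients to HSP70, was at 1.16, 1.72, 1.08, 1.38 and 1.23. Hsph1, a nucleotide exchange factor for HSP70, was at 0.346, 0.401, 0.274, 0.393 and 0.406. In these last genes the BD libraries overlapped the fresh pair or lay close to it, and stored 10x was the lowest library.

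The fresh pair itself differed. Fresh 10x 2 was above fresh 10x 1 for 9 of the 10 genes, against 53.2% of all 15353 genes, and the exception was Hspa8. The ratio of fresh 10x 2 to fresh 10x 1 ran from 0.883 for Hspa8 to 1.83 for Hspa1a, and was 1.77 for Hspa1b. The fresh pair is the only source of error in the tests of the single stored and BD 1 libraries. The edgeR fits share that error over genes, so a gene's own gap between the pair need not be its test error.

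Storage at 4 °C was compared with edgeR's quasi-likelihood test, stored 10x against the fresh pair. In whole libraries none of the 10 chaperones passed an adjusted p of 0.05, where 0.228% of 15353 genes did. In this edgeR fit 2 chaperones had an unadjusted p under 0.05, and DESeq2 called 0. All 10 lay below both fresh libraries, which held for 44.3% of all genes. Their median log2 fold change was -0.37, against 0.00 over all genes. The lowest was Hspa1a at -1.39 (SE 0.37, adjusted p = 0.198 in edgeR's test), and the mildest was Hsp90ab1 at -0.12 (SE 0.13).

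Among epithelial-like cells, which hold tumour cells and any normal mammary epithelium unseparated, Hspa1a was at 3.03 and 5.63 in the fresh pair and 1.52 in stored 10x. Stored 10x was below both. The log2 fold change was -1.49 (SE 0.31), with an adjusted p of 0.0598 in edgeR's quasi-likelihood test, which misses the threshold. Hspa1b was at 1.18 and 2.04 in the fresh pair and 0.988 in stored 10x, a log2 difference of -0.69 (SE 0.26, adjusted p = 0.242 by the same edgeR test). No chaperone was called there, against 1.55% of 14016 genes, 6 had an unadjusted p under 0.05 in edgeR, and DESeq2 called 0. Without the filter on low counts edgeR called 3, namely Hspa1a, Hspa1b and Hspb1, and over all alternatives the adjusted p of Hspa1a ran from 5.73e-06 to 0.577.

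Fibroblast-like and T-like cells each had 1 called chaperone after storage, and in both it was Hspa1a. In fibroblast-like cells Hspa1a was at 2.82 and 2.21 in the fresh pair and 1.46 in stored 10x. It fell by 0.78 on the log2 scale (SE 0.19, adjusted p = 0.00772 by edgeR's test), where 6.4% of 11241 genes fell. In T-like cells Hspa1a was at 3.48 and 4.33 in the fresh pair and 1.12 in stored 10x. It fell by 1.70 (SE 0.38, adjusted p = 0.0234 by edgeR's test), where 0.115% of 5208 genes fell. Both stored values lay under both fresh values. The T-like call rests on few UMIs, at 112 and 96 in the fresh pair and 47 in stored 10x. In fresh 10x 2, 3 of 41 T-like cells held 67.7% of the Hspa1a UMIs. Without the top 3 cells of each library the T-like levels were 2.48 and 1.47 in the fresh pair and 0.637 in stored 10x. No chaperone was called in macrophage-like cells (1.29% of all genes called there) or endothelial-like cells (0.167%). In that pair of edgeR fits 2 and 3 chaperones had an unadjusted p under 0.05. DESeq2 was not run on these classes. In macrophage-like cells the fresh pair was far apart for Hspa1a, at 3.95 and 13.7, and stored 10x lay between at 5.66.

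The storage fold change of some chaperones differed between fibroblast-like and epithelial-like cells. With 1 stored library, storage cannot be told apart from other traits of that library. The difference between the classes was itself fitted in edgeR, with library as a block, as fibroblast-like minus epithelial-like log2 fold change. It was 1.09 for Hspb1 (adjusted p = 4.2e-07), 0.99 for Dnajb1 (0.00102), 0.79 for Hspa1b (0.00689) and 0.70 for Hspa1a (0.0176). These 4 of the 10 passed, against 6.13% of 14505 genes. For Dnajb1 the values behind it were 1.18, 1.85 and 1.09 in epithelial-like cells of fresh 10x 1, fresh 10x 2 and stored 10x, and 0.936, 0.654 and 1.15 in fibroblast-like cells. The stored library was thus below both fresh libraries in epithelial-like cells and above both in fibroblast-like cells. Hspb1 in fibroblast-like cells was at 0.883 and 1.18 in the fresh pair and 1.37 in stored 10x. In stored 10x, 3 of 313 of these cells held 30.8% of its UMIs. Without the top 3 cells of each library its levels were 0.810, 0.918 and 0.976.

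The fibroblast-like class was not made up alike in each library. Of its cells, a cluster led by Spon1 and Thbs4 (cluster 17) held 158 of 194 in fresh 10x 1 and 76 of 120 in fresh 10x 2, while a cluster led by Clec3b and Efemp1 (cluster 16) held 239 of 313 in stored 10x and 248 of 334 in BD 1. With cluster 16 alone, 3 of the 10 genes passed, against 1.34% of all genes, at 1.14 for Hspa1a, 1.24 for Hspb1 and 1.35 for Dnajb1, and Hspa1b was at 0.75 (adjusted p = 0.388 in edgeR). With cluster 17 alone, Hspa1b (1.09) and Hspb1 (1.12) passed, against 2.57%. Hspa1a was then at 0.80 (adjusted p = 0.0557 in edgeR) and Dnajb1 at 0.63 (0.246). Hspb1 was the gene that passed in each of these fits. Hspa1a in fibroblast-like cells was 1.82 and 1.40 in the fresh pair and 1.31 in stored 10x in cluster 16, and 3.05, 2.67 and 1.90 in cluster 17.

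**Figure D1:**
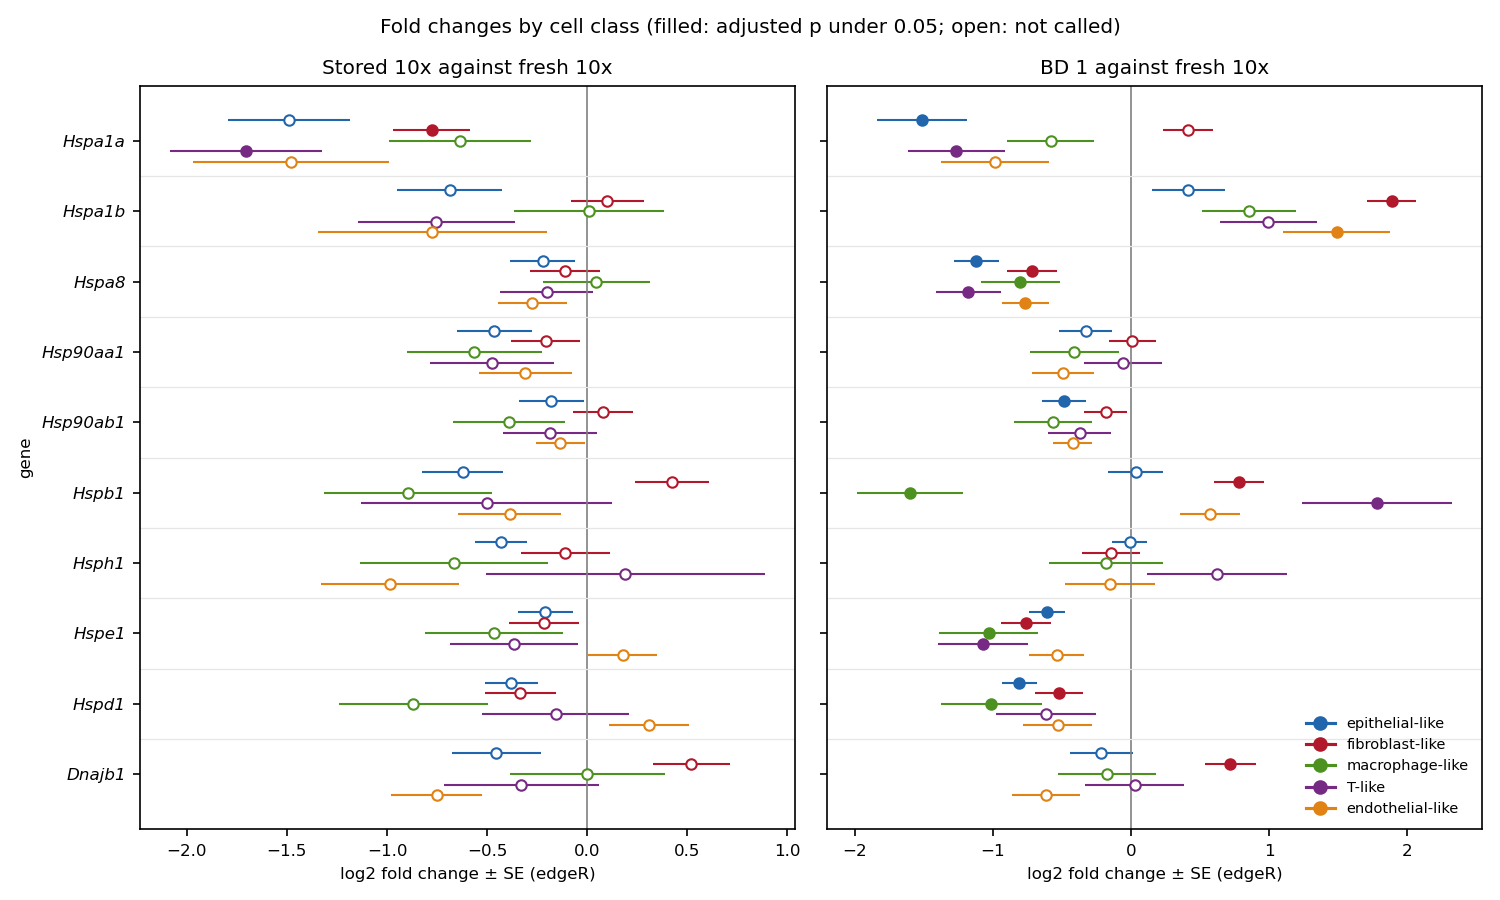
Log2 fold change against the fresh 10x pair, with SE, for storage (left) and for BD 1 (right), per chaperone and cell class, filled where the adjusted p is under 0.05 in edgeR. In the left panel Hspa1a in fibroblast-like (-0.78) and T-like cells (-1.70) is filled. In the right panel Hspa8 lies left of 0 in every class and Hspa1b lies right of 0.

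Platform was compared as BD 1 against the same fresh 10x pair, so the storage and platform fits share their controls. In whole libraries 4 chaperones fell and none rose, where 20.3% of 15859 genes fell and 41.4% were called in either direction. The 4 were the constitutive and mitochondrial members. Hspa8 fell by 1.12 on the log2 scale (SE 0.15, adjusted p = 0.0061 in edgeR), Hspd1 by 0.83 (0.00982), Hspe1 by 0.67 (0.0179) and Hsp90ab1 by 0.52 (0.0444). The Hsp90ab1 call was lost without the filter on low counts (0.0717) and without mitochondrial and ribosomal protein genes (0.0611). Of the 6 inducible members, Hspa1a was at -1.18 (SE 0.38, adjusted p = 0.0621), Hspa1b at 0.55 (0.238), Hsp90aa1 at -0.34 (0.265) and Dnajb1 at -0.20 (0.546). The other inducible members, Hspb1 and Hsph1, were at -0.07 (0.819) and -0.06 (0.725).

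Epithelial-like cells had the same 4 genes lower on BD 1, plus Hspa1a, and none higher. That is 5 of 10, where 21.9% of 14404 genes fell and 44.4% were called. Hspa8 was at 20.3 and 18.2 in the fresh pair and 9.84 in BD 1, and it fell by 1.12 (SE 0.16, adjusted p = 0.00164 in edgeR). Hspd1, at 3.05 and 3.45 against 2.05, fell by 0.81 (0.00244), and Hspe1, at 4.31 and 4.92 against 3.35, fell by 0.61 (0.00938). Hsp90ab1 fell by 0.49 (0.0427) and missed the threshold under 3 of the alternatives. Hspa1a, at 3.03 and 5.63 against 1.67, fell by 1.52 (SE 0.33, adjusted p = 0.00901 in edgeR), but DESeq2 gave 0.0887. Against fresh 10x 1 alone its log2 ratio was -0.86, and against fresh 10x 2 alone -1.75.

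Hspa8 was lower on BD 1 in all 5 classes tested. Its log2 fold change was -0.72 in fibroblast-like, -0.80 in macrophage-like, -1.18 in T-like and -0.77 in endothelial-like cells, each past the threshold, and BD 1 lay below both fresh libraries in each class. Hspe1 fell in fibroblast-like (-0.76), macrophage-like (-1.03) and T-like cells (-1.07). Hspd1 fell in fibroblast-like (-0.52) and macrophage-like cells (-1.01), and its macrophage-like log2 ratio was -0.37 against fresh 10x 1 alone. Called genes of either direction made up 46%, 22.4%, 15.5% and 14.9% of all genes in these 4 classes.

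Fibroblast-like cells also had 3 inducible members higher on BD 1. Hspa1b was at 0.650 and 0.753 in the fresh pair and 2.80 in BD 1, with 2.10 in BD 2. Both BD libraries lay above both fresh ones, and the rise for BD 1 was 1.89 on the log2 scale (SE 0.17, adjusted p = 1.5e-09 in edgeR). Hspb1 rose by 0.78 (0.000864) from 0.883 and 1.18 to 1.91, and Dnajb1 by 0.72 (0.00212) from 0.936 and 0.654 to 1.43. The 3 rose where 22.5% of 11335 genes did. The class difference from epithelial-like cells was 1.73 for Hspa1a, 1.29 for Hspa1b, 0.76 for Dnajb1 (adjusted p = 0.015 in edgeR) and 0.61 for Hspb1 (0.00816), so 4 of 10 passed, against 7.69% of genes. With cluster 16 alone these were 2.42, 1.43, 1.28 and 1.06 and all 4 passed, against 0.909%. With cluster 17 alone Hspa1a (1.43) and Hspa1b (1.49) passed, against 1.85%, while Dnajb1 was at -0.06 and Hspb1 at -0.36 (0.496).

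Immediate early genes linked to tissue dissociation were set beside the chaperones. Their summed level in fibroblast-like cells was 62.4 and 37.7 in the fresh pair, 72.7 in stored 10x, and 88.5 and 81.9 on BD 1 and BD 2. In that class 5 of the 8 listed genes rose on BD 1, where 22.5% of all genes did, and 3 of 8 rose after storage, where 7.02% did. In whole libraries 1 of 8 rose and 3 fell on BD 1, where 21.1% of all genes rose and 20.3% fell. In epithelial-like cells 1 rose and 5 fell, where 22.4% of all genes rose and 21.9% fell. In fibroblast-like cells after storage, 6 chaperones had a log2 fold change below 0 and 4 above, with Hspa1a at -0.78. The immediate early genes called there all rose. The part of the immediate early genes in the chaperone results was not tested.

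A few cells carried some of the calls in small classes. Hspb1 rose on BD 1 in T-like cells by 1.78 on the log2 scale (adjusted p = 0.0353 in edgeR), from 0.186 and 1.31 to 2.94. In BD 1, 3 of 100 T-like cells held 69.1% of the 217 Hspb1 UMIs, and the level without them was 1.02. In fresh 10x 2, 3 T-like cells held all 29. Against fresh 10x 1 alone the log2 ratio was 3.98 and against fresh 10x 2 alone 1.17. Hspb1 was called lower on BD 1 in macrophage-like cells (-1.60, adjusted p = 0.000424 in edgeR), yet BD 1 at 0.412 lay between the fresh pair at 0.386 and 1.52. In fresh 10x 2, 3 macrophage-like cells held 70.6% of its UMIs, and the level without them was 0.477. Against fresh 10x 1 alone the log2 ratio was 0.09. Hspa1b rose on BD 1 in endothelial-like cells by 1.49 (adjusted p = 0.0328 in edgeR), from 1.06 and 2.60 to 4.90, but 3 of 45 cells held 63.9% of the UMIs and the level without them was 1.91. Hspa1a in endothelial-like cells was at -0.99, and the sum of Hspa1a and Hspa1b was at -0.07 (SE 0.37) and not called. The sum mixes both copies, so it does not test Hspa1b alone. The platform effect differed from that in epithelial-like cells for 1 of the 10 genes in each of these classes, against 0.638% of genes in T-like, 0.681% in macrophage-like and 0.724% in endothelial-like cells. Hspa1a fell on BD 1 in T-like cells by 1.27 (adjusted p = 0.0215 in edgeR), from 3.48 and 4.33 to 2.00. Without the top 3 cells of each library these levels were 2.48, 1.47 and 1.41. The sum of both copies was at -0.33 (adjusted p = 0.508 in edgeR) and not called.

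Hspa1a and Hspa1b encode nearly the same protein, and the ratio of the pair differed between the kinds of library. The ratio of Hspa1a to Hspa1b UMIs in epithelial-like cells was 2.58 and 2.76 in the fresh pair, 1.54 in stored 10x, and 0.705 and 0.713 on BD 1 and BD 2. The libraries of 1 kind were close, stored 10x stood between, and no 95% binomial interval of one kind reached another (2.47 to 2.85 in the fresh pair, 1.48 to 1.60 in stored 10x, 0.684 to 0.739 on BD). These intervals cover counting error only.

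The order recurred in the other classes. In fibroblast-like cells the ratio was 4.34, 2.94, 1.97, 1.30 and 1.30, and in macrophage-like cells 3.97, 4.66, 2.79, 1.61 and 1.59. T-like cells had 2.95, 3.31, 1.62, 0.652 and 0.742. Endothelial-like cells had 4.35 and 3.90 in the fresh pair, 2.52 in stored 10x and 0.735 in BD 1. So stored 10x lay under the fresh pair and above the BD libraries in each of the 5 classes, but its interval overlapped that of a fresh library in 3 of them. In T-like cells, at 0.999 to 2.67, it reached into both fresh intervals. In macrophage-like cells 2.37 to 3.30 overlapped 2.74 to 5.90 of fresh 10x 1, and in endothelial-like cells 1.88 to 3.40 overlapped that of fresh 10x 2, which began at 3.39. No test of the ratio over libraries was run.

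The copies share sequence, so the authors' counting could split or drop their reads, and single-gene values of both are uncertain. Of 90-base windows in the annotated Hspa1a transcript, 49.3% occurred exactly in Hspa1b, but 0% of those in its last 500 bases, nearest to where 3' reads start. A fit with both copies summed, added after the data were seen, avoids a split. It follows both copies together and does not test either copy alone. Summed, epithelial-like cells had 4.21 and 7.67 in the fresh pair, 2.51 in stored 10x and 4.05 in BD 1. The log2 fold change was -1.23 for storage (adjusted p = 0.0981 in edgeR) and -0.70 for BD 1 (0.106), so the Hspa1a call on BD 1 was not kept. Summed in fibroblast-like cells, the pair rose on BD 1 by 0.88 (0.000113), and after storage it was at -0.54 (0.0517). T-like cells after storage were at -1.41 (0.0514), so neither Hspa1a storage call was kept in the sum.

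**Figure D2:**
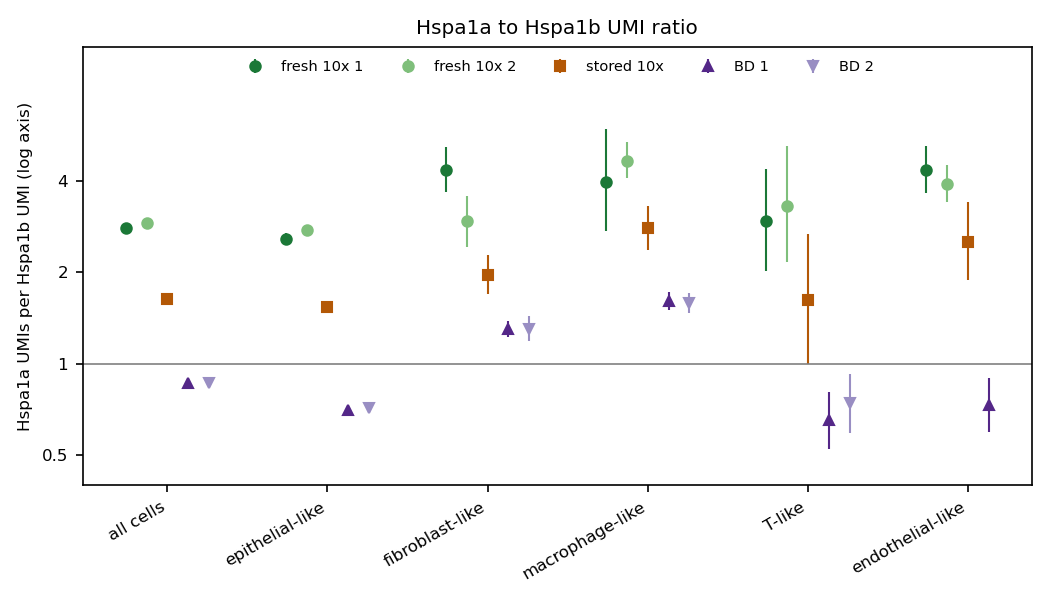
Ratio of Hspa1a to Hspa1b UMIs per library and cell class on a log axis, with 95% binomial intervals. In each class the fresh 10x libraries are highest, stored 10x is lower and the BD libraries are lowest, from 2.58 and 2.76 to 1.54 and then 0.705 and 0.713 in epithelial-like cells.

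Inducible HSP70 was also set against its constitutive relative. The ratio of summed Hspa1a and Hspa1b UMIs to Hspa8 UMIs in epithelial-like cells was 0.207 and 0.421 in the fresh pair, 0.153 in stored 10x, and 0.411 and 0.323 on BD 1 and BD 2. BD 1 and BD 2 lay between the fresh libraries, and stored 10x lay under both. In fibroblast-like cells the ratio was 0.260, 0.312, 0.209, 0.855 and 0.671, with both BD libraries above all 10x libraries. In macrophage-like cells it was 0.243, 0.918, 0.389, 0.867 and 1.08, and the fresh pair spanned nearly the whole range.

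Cell classes differed in which chaperones they carried. Hsp90ab1 and Hspd1 were higher in epithelial-like cells than in any other class in 5 of 5 libraries. In BD 1, for instance, Hsp90ab1 was at 21.1 in epithelial-like, 19.3 in T-like, 16.3 in endothelial-like, 14.4 in macrophage-like and 11.4 in fibroblast-like cells. Fibroblast-like cells were lowest for Hsp90ab1 and Hspa8 in 5 of 5 libraries. Their Hspa8 level was 0.523 to 0.765 times the epithelial one, and 6 of the 10 genes (Hspa8, Hsp90aa1, Hsp90ab1, Hspb1, Hspe1 and Hspd1) were lower there in every library, as were 42.5% of all genes. Class differences are descriptions over the same 5 libraries, with no test.

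Endothelial-like cells were the highest class for Hspa8 and Hspb1 in 4 of the 4 libraries with at least 30 such cells. Hspb1 was at 5.01, 7.29, 4.49 and 8.85 there, 1.11 to 1.41 times the epithelial level, and Hspa8 1.28 to 1.54 times. Hspa1a was above the epithelial level there in all 4 as well, by 1.52 to 2.15 times. Genes higher in endothelial-like than epithelial-like cells in all 4 made up 24.9% of all genes. Hspb1 was low in the immune classes, at 0.0657 to 0.233 times the epithelial level in macrophage-like cells and 0.0411 to 0.469 times in T-like cells. The summed epithelial genes named above were at 2.05% to 6.26% of their epithelial level in macrophage-like and 2.34% to 5.94% in T-like cells. Those are ratios of per-cell medians, while the Hspb1 ratios use summed UMIs, so they are unlike measures. How much of the Hspb1 signal came with epithelial RNA was not tested.

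Macrophage-like cells had more Hspa1a than epithelial-like cells in 5 of 5 libraries, by 1.30 to 6.37 times, and more Hsph1 by 1.13 to 1.36 times. This held in every library for 15.7% of all genes. For Hsph1 it held in 4 of 5 with mitochondrial and ribosomal protein genes out of the total, where the lowest ratio was 0.993, and 0 of 48 thinned macrophage-like cells of fresh 10x 1 had an Hsph1 UMI (exact 95% upper bound 7.40%). Hspa1a in macrophage-like cells was 3.95, 13.7, 5.66, 7.20 and 8.25, the highest of the classes in 4 of 5 libraries. In fresh 10x 1 mural-like (68 cells, 6.41) and endothelial-like cells (4.63) were higher. Hspa1a in fibroblast-like cells was under the epithelial level in all 10x libraries and above it in both BD libraries, and with cells classed by a marker gate it was above in 3 of 5.

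**Figure D3:**
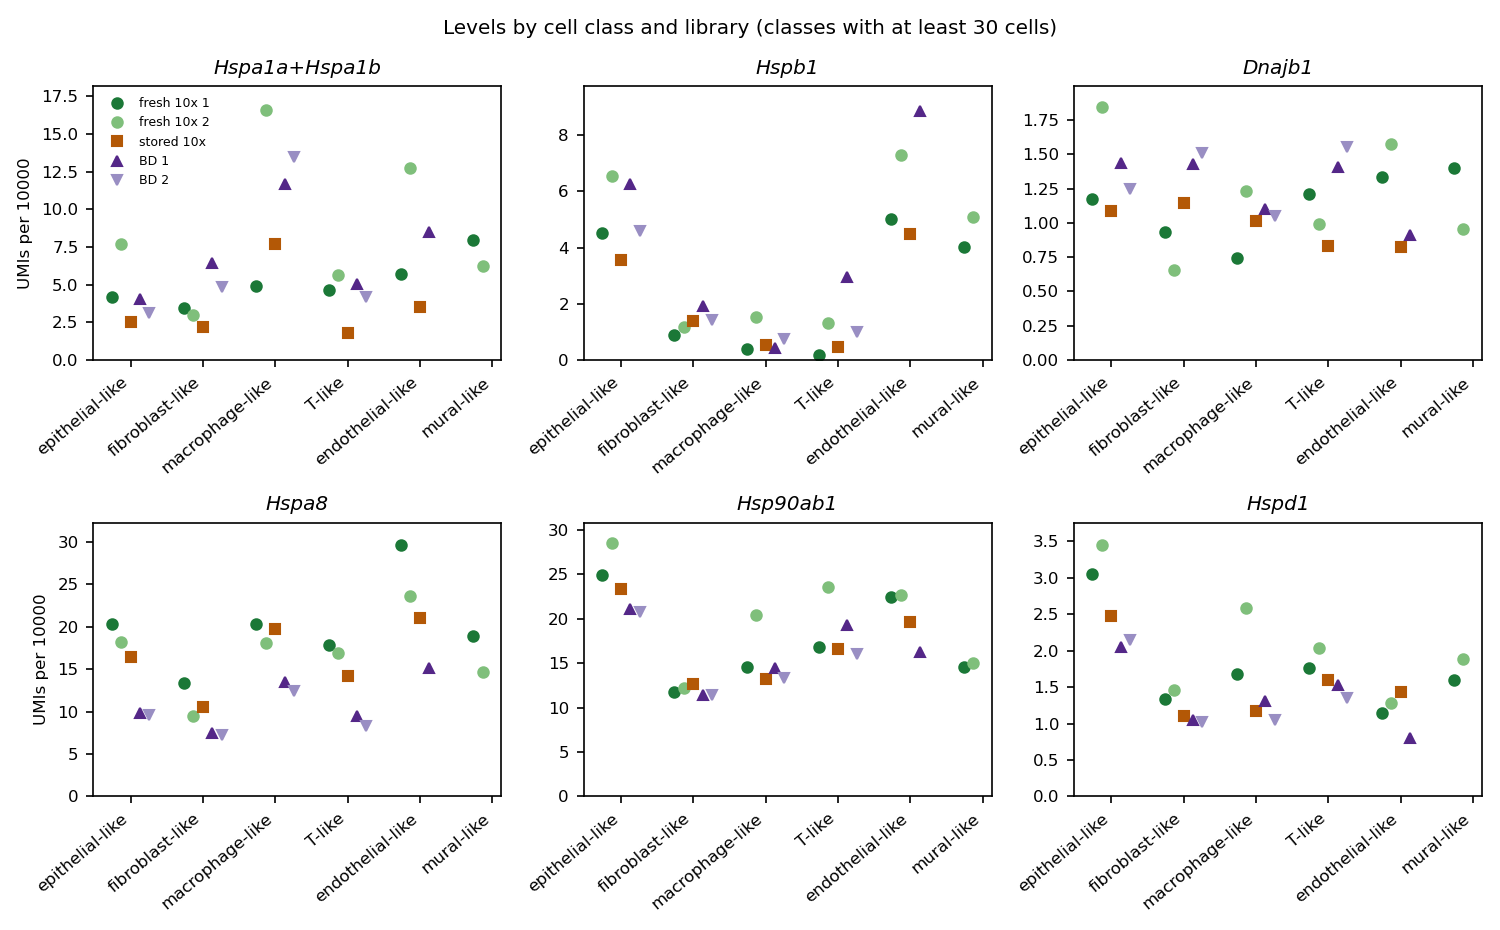
Levels (UMIs per 10000) of summed Hspa1a and Hspa1b, Hspb1, Dnajb1, Hspa8, Hsp90ab1 and Hspd1 by cell class and library. Classes with at least 30 cells are shown. Hsp90ab1 and Hspd1 peak in epithelial-like cells in every library, and Hspb1 falls to 0.186 in T-like cells of fresh 10x 1. The sum of Hspa1a and Hspa1b is highest in macrophage-like cells in 4 of 5 libraries.

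Within epithelial-like cells the chaperones split by proliferation. Cycling cells were those with at least 2 UMIs of 10 cycling genes after thinning each cell to 2000 UMIs. Cells with exactly 1, near the cut, numbered 83 to 235 per library and had intermediate Hspd1 levels. Hspd1 was 2.48 to 2.89 times as high in cycling cells as in cells with no such UMI, Hspe1 2.10 to 2.55 times, Hsph1 1.67 to 2.31 times and Hsp90aa1 1.60 to 2.09 times. Hspa8 (1.21 to 1.43) and Hsp90ab1 (1.23 to 1.30) were higher as well. These 6 were higher in cycling cells in 5 of 5 libraries, as were 28.8% of all genes. The other 4, Hspa1a (0.545 to 0.932), Hspa1b (0.696 to 0.945), Hspb1 (0.369 to 0.564) and Dnajb1 (0.600 to 0.830), were lower in 5 of 5, as were 30.7% of all genes. So the inducible HSP90 and HSP110 genes sat with the constitutive and mitochondrial ones. Near the cut, Hspa1a lay between cycling and non-cycling levels in fresh 10x 2 and BD 1 only. It was outside in fresh 10x 1 (3.39 against 2.48 and 3.14), stored 10x (1.18 against 1.34 and 1.62) and BD 2 (0.982 against 1.25 and 1.35). Near-cut Hspa1b lay between in fresh 10x 2 only. Cycling cells were deeper, with a median of 26928 against 11410 UMIs in fresh 10x 1 (141 and 1129 cells), and the part of depth was not tested.

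Epithelial clusters of at least 30 cells, made without the chaperone genes, differed widely in Hspb1. It was highest in a cluster led by Npy, Spp1 and Ltf, at 8.93, 15.3, 8.29, 15.5 and 11.7. The basal-type cluster led by Krt5 and Krt14 came next in each library, at 7.80, 11.2, 6.38, 11.8 and 10.5. The cluster led by the mitotic genes Ube2c and Birc5 had 2.74, 3.05, 1.55, 2.70 and 2.11. That was the lowest level in all libraries except fresh 10x 1, where the cluster led by Dcpp1 was at 2.08.

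Cells rich in mitochondrial RNA, a common sign of damage, carried more inducible HSP70. With mitochondrial and ribosomal protein genes taken out of the total, epithelial-like cells over 20% mitochondrial UMIs had 1.1 to 2.01 times the Hspa1a level and 1.26 to 2.27 times the Hspa1b level of cells under 10%. Both were higher in 5 of 5 libraries, as were 9.93% of all genes. Hspa8 (0.792 to 0.901), Hsp90aa1 (0.582 to 0.992), Hsp90ab1 (0.622 to 0.811), Hspe1 (0.497 to 0.708) and Hspd1 (0.233 to 0.685) were lower in 5 of 5, as were 9.92%. Hspb1, Hsph1 and Dnajb1 went both ways. The high-mitochondrial cells were shallower and few in fresh 10x 1, with 27 cells at a median of 3367 UMIs. The low end of Hspd1, 0.233, came from that library, and the other libraries were at 0.426 to 0.685. Within the cells under 10%, Hspa1a was at 4.10 and 7.92 in the fresh pair, 2.02 in stored 10x, and 2.08 and 1.55 on BD 1 and BD 2, so the libraries kept the order they had in all epithelial-like cells. Hspa8 in these cells was at 28.3 and 26.3 against 23.5, 15.5 and 15.1.

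**Figure D4:**
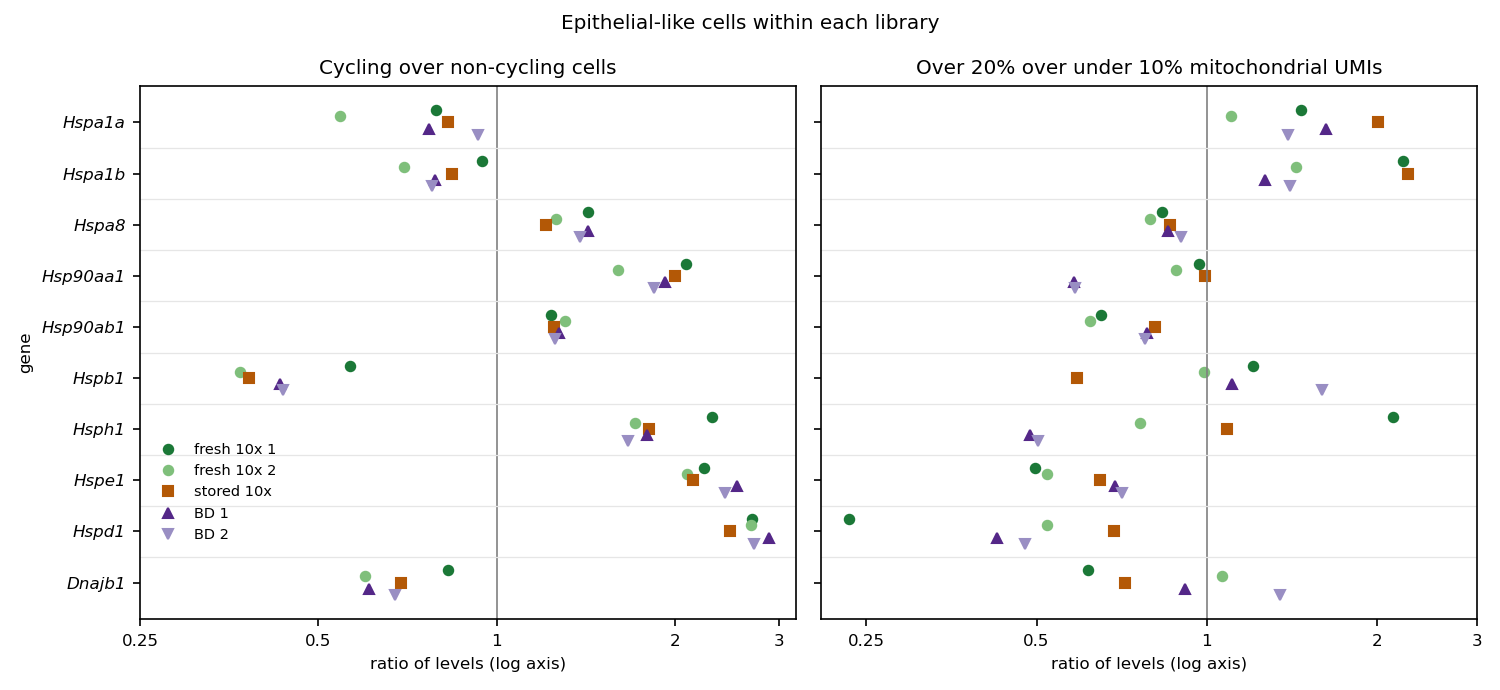
Ratios of chaperone levels within epithelial-like cells, 1 point per library, for cycling cells over cells with no cycling UMI (left) and for cells over 20% against under 10% mitochondrial UMIs (right). Hspd1 lies at 2.48 to 2.89 on the left and at 0.233 to 0.685 on the right, while Hspa1a lies under 1 on the left and over 1 on the right. The 0.233 is fresh 10x 1, which has few cells over 20%, and the other libraries start at 0.426.

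Inducible HSP70 was detected in a part of the epithelial-like cells. After thinning to 2000 UMIs per cell, at least 1 Hspa1a or Hspa1b UMI was found in 36.6% of epithelial-like cells and 51.2% in fresh 10x 1 and 2. The share was 29.1% in stored 10x, 36.9% on BD 1 and 31.8% on BD 2. The share was highest in fresh 10x 2 and lowest in stored 10x. Without thinning, Hspa1a alone was seen in 61.3%, 73.3%, 46.7%, 48.1% and 38.0% of these cells. The top 10% of cells held 59.8%, 48.9%, 64.6%, 61.1% and 64.3% of the thinned Hspa1a and Hspa1b UMIs. This share depends on a gene's level. It was 22.7% to 28.2% for Hspa8, 45.6% to 55.8% for Hspd1, 48.8% to 53.3% for Hspb1 and 55.6% to 67.9% for Dnajb1. The Dnajb1 range overlapped that of inducible HSP70.

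The wider chaperone network was read from lists of other genes. After storage edgeR called 0 of the 49 listed genes tested in whole libraries and 0 in epithelial-like cells, and in each 10 had an unadjusted p under 0.05. In fibroblast-like cells Cacybp (-0.79) of 12 HSF1-linked genes and Dnajb11 (-0.72), an HSP40 of the endoplasmic reticulum, of 8 organelle chaperones were lower, where 6.4% of all genes were. The immediate early genes Atf3 (1.91), Dusp1 (0.88) and Egr1 (0.76) were higher there. No HSP90 cochaperone, chaperonin subunit or regulator was called in that class.

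On BD 1 the calls in the cochaperone, chaperonin and organelle lists were mostly falls, in whole libraries, where 20.3% of all genes fell and 21.1% rose. Of 12 HSP90 cochaperones 7 fell and 1 rose, with a list median of -0.57 against 0.01 for all genes. The largest falls were Ahsa1 (-1.73), which activates the HSP90 ATPase, Bag1 (-1.63), an HSP70 nucleotide exchange factor, and Stub1 (-1.42), a ubiquitin ligase bound to chaperones. Of the 8 subunits of TRiC, the cytosolic chaperonin, 7 were tested and 5 fell, led by Cct7 (-1.27), Cct3 (-0.92) and Cct5 (-0.72). Of 8 organelle chaperones 6 fell, led by the mitochondrial factor Grpel1 (-1.23), Dnajb11 (-1.19) and Sdf2l1 (-0.81). The 12 HSF1-linked inducible genes split, with 4 higher and 4 lower. Hspb8 (1.62) rose, and Cryab (-1.24), like Hspb8 a small heat shock protein, and Hspa2 (-1.06) fell. Of the 3 regulators Hsf1 fell by 0.65 and Hsf2 rose by 0.63. In epithelial-like cells 6 of 12 cochaperones, 4 of 7 TRiC subunits and 6 of 8 organelle chaperones were lower, where 21.9% of all genes fell. In fibroblast-like cells these counts were 8, 5 and 2, where 23.5% fell.

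The genes whose level most resembled that of summed Hspa1a and Hspa1b over 26 profiles of library by class were Ppp1r15a (Pearson r 0.842), Picalm (0.686), Sdcbp (0.677), Ubl3 (0.675) and Tmem176b (0.674), out of 1493 genes compared. The profiles share libraries, depth and classes, so the values are descriptions. Ppp1r15a, which directs removal of the phosphate from eIF2 alpha in the stress response, kept r = 0.840 over the 17 profiles from 10x libraries, where the others were at 0.566 to 0.623. Of the other chaperones, Hsp90aa1 reached 0.389 over all profiles and 0.586 over the 10x ones, Dnajb1 0.305 and 0.554, and Hspa8 0.281 and 0.536. Among the listed immediate early genes, Dusp1 reached 0.593 over all profiles and the others 0.115 to 0.420.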

How the data were processed

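The authors deposited whole-number UMI counts per gene and cell for 5 libraries, made with Cell Ranger 3.0.1 on mm10 per the submitters' processing notes, which do not say which platform this covers. The chaperones and all gene lists were chosen with earlier results of these data known. Counts were summed per library, or per library and cell class, and tested with edgeR 4.0.16 in R 4.3.3 (TMM scaling, filterByExpr, quasi-likelihood F test, Benjamini-Hochberg adjustment over all genes tested, threshold 0.05). Storage compared stored 10x with the 2 fresh 10x libraries, and platform compared BD 1 with the same 2. DESeq2 1.42.0 and other settings were alternatives. A sum over both Hspa1 copies and fits on single fibroblast-like clusters were added after seeing the data. The edgeR step was tested on simulated data.

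Cells with at least 200 genes were clustered (scanpy 1.11.5, 2000 variable genes without the chaperone lists and mitochondrial genes, 30 principal components, 15 neighbours, Leiden resolution 1). Cells with over 1% plasma-cell or haemoglobin UMIs were set aside. Doublets were not removed, since Scrublet marked 0 to 21 cells per library and had not worked. Levels with under 30 cells in a class were not compared, but the split of epithelial-like cells by mitochondrial share had no such limit. Named genes were the 10 chaperones, the 3 called genes of each wider list with the largest absolute log2 fold change, and the 5 genes most like summed Hspa1a and Hspa1b (log2 of UMIs per 10000 plus 0.1). The libraries held 29166129 to 59957945 UMIs. Intervals of ratios and shares are exact binomial (Clopper-Pearson), and those of levels are exact Poisson. Both are at 95% and cover counting error only.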

Additional observations from a re-analysis of the deposited data

Results flagged for a closer look

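The storage or platform fold change of some chaperones differed between a cell class and epithelial-like cells. Each difference was itself tested in edgeR (class minus epithelial-like, log2 scale). For storage, fibroblast-like cells differed for Hspa1a (0.70), Hspa1b (0.79), Hspb1 (1.09) and Dnajb1 (0.99). For platform, fibroblast-like cells differed for Hspa1a (1.73), Hspa1b (1.29), Hspb1 (0.61) and Dnajb1 (0.76).

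Platform differences in the smaller classes were -1.41 for Hspb1 in macrophage-like cells (adjusted p = 0.0295, background 0.681% of genes), 1.82 for Hspb1 in T-like cells (0.000553, background 0.638%) and 1.18 for Hspa1b in endothelial-like cells (0.00139, background 0.724%). In each of these a set of 3 cells in 1 library held 63.9% or more of the UMIs of the gene.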

How the results depend on the processing

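No paired analysis was possible because the groups compared share fewer than 2 replicate numbers. The class differences were fitted with library as a block. The count of chaperones called stayed within 1.5 times in 23 cases and moved in 1, storage in epithelial-like cells without the low-count filter, where 3 were called in place of 0. Of single fold changes with both fresh libraries kept, 228 kept direction and call, 7 lost and 4 gained a call, and 5 changed sign, none of them called. These were Hsph1 on BD 1, at 0.00972 in whole libraries with the BD libraries grouped by title, and in epithelial-like cells at 0.0486 with that grouping, 0.0549 with filtered cells and 0.0103 without the low-count filter, and Hspb1 at -0.14 with that grouping. With that grouping Hspa1a passed in whole libraries (-1.31, adjusted p = 0.0116 in edgeR). By marker gate the libraries above the epithelial level became 3 for Hspa1a and 3 for Dnajb1 in fibroblast-like cells, and 2 for Hspb1 in mural-like cells.

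Fibroblast-like differences changed sign in cluster 16 for Hspe1 after storage (-0.0359), and in cluster 17 for Hspd1 after storage (-0.0365) and on BD 1 for Hsp90ab1 (-0.00195), Hspb1 (-0.36), Hspd1 (-0.15) and Dnajb1 (-0.0551). The cause was not tested. Against a single fresh library, 1 against 1 with no test, Hspa1a ranged from -1.89 to -1.0 after storage and from -1.75 to -0.86 on BD 1 in epithelial-like cells. In all, 25 such values moved by more than the fresh pair's spread and 55 did not. This count cannot show stability. Apart from scaling, a ratio to 1 library of a pair lies within that spread of the pair's mean by construction. On BD 1 the whole-library range spanned 0 for Dnajb1 (-0.32 to 0.25), Hsp90aa1 (-0.42 to 0.06), Hspb1 (-0.18 to 0.36) and Hsph1 (-0.03 to 0.19), none of them called. Depth limits genes with few UMIs in small classes, such as Hsph1 in macrophage-like cells.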
